A study of Mus musculus with 8 samples.

Results

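The genes described here mark the cells of blood vessels: 22 are markers of endothelial cells and 11 of mural cells, the pericytes and smooth muscle cells that wrap the vessel wall. They were found by symbol among the 37315 mouse gene identifiers of the count files, and each of the 33 symbols matched 1 identifier. RNA came from the CA1 hippocampal region of 8 Cas9 mice, each of which received an adeno-associated virus (AAV) by stereotaxic injection. In 4 mice the virus carried a SIK3 sgRNA (the group labelled KO) and in 4 a control sgRNA (the group labelled Control), so all 8 mice carried Cas9 and received a virus. Controls 1 and 3 and KO 1 and 2 were male, and controls 2 and 4 and KO 3 and 4 were female. Each mouse gave 1 library, and the numbers only name libraries and pair no mice. The sources used here do not give the strain, age, virus serotype, promoters that drive Cas9 and the guide, or time after injection. The question was how the level of these vascular genes compared between the guides, and whether endothelial and mural genes differed in this.

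Brain capillaries are tubes of endothelial cells held together by adherens and tight junctions, and these junctions with a set of transporters form the blood-brain barrier. Endothelial cells receive VEGF and angiopoietin signals through receptor tyrosine kinases, and they release PDGF-B, which binds the receptor on pericytes and keeps these cells at the capillary wall. Pericytes carry potassium channels and matrix proteins that set them apart from the contractile smooth muscle cells of arterioles. SIK3 is a salt-inducible kinase that holds CRTC coactivators and class IIa histone deacetylases in the cytoplasm, and these act with CREB, which binds the cyclic AMP response element (CRE), and with MEF2 factors.

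Promoters were read from RefSeq (GRCm38.p6), in windows of 300 bases, from 250 before to 50 after the start of transcription. Windows were used for 23 of the 33 genes. No window was used for 10 genes: Cdh5, Pecam1, Esam, Bsg, Ly6a, Vwf, Pdgfrb, Higd1b, Tagln and Myh11. Acta2 was thus the only smooth muscle gene read. The full CRE, TGACGTCA, was found in the windows of Flt1 and Abcg2, 2 of 23 genes, and in 1.79% of 32817 windows of this length. For every motif here, a gene counts once if any of its windows matched, while the share over all windows counts each window. Some genes have several windows, so the 2 measures are not alike. Its first 5 letters, TGACG, were searched on both strands and lie inside every full site. They were in 6 of the 23 genes (Abcg2, Egfl7, Flt1, Itm2a, Kcnj8 and Notch3) and in 20.8% of all windows. The letters CGGAAG, 1 form of the ETS site, were in 1 of the 23 (Tie1) and in 16.9% of all windows. Other forms of the ETS site were not searched. A CArG box, searched as a set pattern of 10 bases, was matched in 0 of the 23 and 1.63% of all windows. A MEF2 box, also a set pattern of 10 bases, was matched in 0 of the 23 and 0.558%. Sites that depart from these patterns were not counted. The 0 therefore does not show that a gene such as Acta2 has no CArG box in its window. Stretches of 120 bases, which end 30 bases before the start, are shown for the 2 genes with a full CRE, in capitals, and for the 2 genes whose values in KO and control mice did not overlap. The stretches lie at chr5:147726041-147726160 on the minus strand for Flt1, chr6:58640397-58640516 on the plus strand for Abcg2, chr11:78498971-78499090 on the plus strand for Vtn and chr7:79848240-79848359 on the minus strand for Anpep. The Abcg2 stretch belongs to the third of its RefSeq starts, which lies inside the gene, and the other windows of Abcg2 held no full CRE. The Anpep stretch also lies inside its gene, so it does not lie before the gene's outermost start. The windows of Vtn and Anpep held none of the 5 motifs, which says only that these letters are not in these windows.
Flt1: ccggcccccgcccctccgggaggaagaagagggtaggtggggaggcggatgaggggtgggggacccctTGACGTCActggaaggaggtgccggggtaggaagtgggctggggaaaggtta
Abcg2: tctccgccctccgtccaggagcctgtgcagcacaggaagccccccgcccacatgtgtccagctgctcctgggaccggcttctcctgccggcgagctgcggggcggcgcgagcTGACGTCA
Vtn: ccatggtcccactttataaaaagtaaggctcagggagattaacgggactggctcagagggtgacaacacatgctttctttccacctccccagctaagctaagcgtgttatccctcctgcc
Anpep: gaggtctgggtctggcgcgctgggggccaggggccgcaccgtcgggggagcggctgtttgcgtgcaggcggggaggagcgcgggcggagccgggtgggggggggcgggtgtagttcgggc

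Libraries held 13561662 to 18619928 counts, and each of the 4 females had more counts than each of the 4 males. All 33 genes passed the filter on low counts, among 14788 genes tested. Sik3, the targeted gene, was at 165, 148, 139 and 137 CPM (counts per 1000000 counts of the library) in controls 1 to 4 and at 75.3, 88.3, 82.9 and 98.4 CPM in KO 1 to 4. Each of the 4 KO mice was below each control, and the log2 fold change was -0.77 ± 0.09 (SE) at an adjusted p of 0.0202 by edgeR. Lists of markers of other cells were measured beside the vascular genes. Interferon-stimulated genes, of which 15 of 16 were tested, summed to 70.3 to 76.1 CPM in the controls and 82.4 to 199 CPM in the KO mice, and 15 of 15 had a positive log2 fold change. The 6 MHC class I genes summed to 79.0 to 86.8 CPM and 89.5 to 173 CPM, with the high values of both lists in the KO females. Meningeal fibroblast markers, 11 of 12 tested, summed to 48.3 to 59.4 CPM in the controls and 51.5 to 70.9 CPM in the KO mice. Of these, 11 of 11 were positive, with a median log2 fold change of 0.21 in all mice and 0.44 in females. Microglia markers summed to 303 to 319 CPM in the controls and 309 to 374 CPM in the KO mice, with 9 of 10 positive and a median of 0.08. Oligodendrocyte markers summed to 3141 to 5217 CPM in the controls and 2860 to 4515 CPM in the KO mice, with 0 of 10 positive and a median log2 fold change of -0.14. Dentate granule neuron markers summed to 950.2 to 1091 CPM and 869 to 1065 CPM, with 1 of 9 positive. The part of these lists in the values below was not tested. Red blood cell markers, 2 of 5 tested, summed to 2.43 to 4.64 CPM and 2.00 to 4.59 CPM. None of the markers in these lists was at 0 counts in all 8 libraries. The slope that relates log2 CPM to GC content ran from -0.159 (KO 1) to 0.158 (KO 4) log2 units per 10 percentage points, and the median GC content was 52.4% over the vascular genes and 49.4% over all tested genes.

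On the scale of CPM per kilobase of exon, which allows levels of different genes to be compared, basigin (Bsg) stood highest at 52.9 ± 5.33 (SD over 8 libraries) and the pericyte gene Rgs5 next at 36.9 ± 3.81. Bsg encodes a chaperone of monocarboxylate transporters that neurons and glia also make, and Rgs5 a regulator of G protein signalling. The organic anion transporter gene Slco1a4 followed at 15.8 ± 0.834 and the glucose transporter gene Slc2a1 at 11.9 ± 2.19. A cluster of endothelial genes with the pericyte gene Vtn, at 10.1 ± 1.51, came next. Among receptors, Flt1 was at 5.52 ± 0.30 CPM per kilobase, Tek at 4.60 ± 0.662 and Kdr at 1.89 ± 0.198. The tight junction gene Cldn5 was at 3.19 ± 0.682, the smooth muscle actin gene Acta2 at 2.79 ± 0.456, and Anpep and Kcnj8 were lowest at 0.564 ± 0.105 and 0.461 ± 0.102. Neighbours in this order mostly overlapped in range over the 8 libraries. The exceptions were Bsg over Rgs5, Rgs5 over Slco1a4, Mfsd2a over Flt1, and Notch3 over Anpep. Markers of both classes were thus detected in every library, with the lowest count, 11, for Kcnj8.

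**Figure D1:**
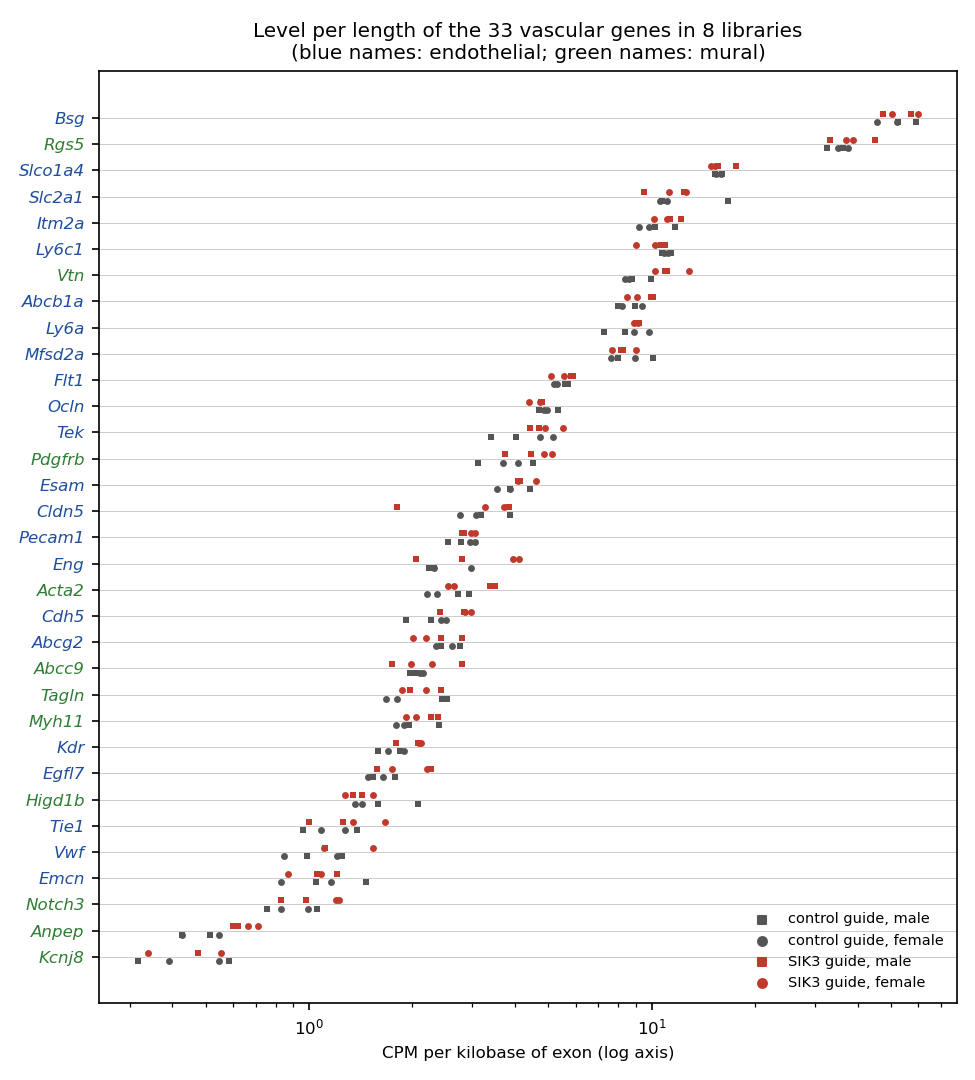
Level of each of the 33 vascular genes in CPM per kilobase of exon (log axis), 1 symbol per library, grey for control and red for SIK3 guide, squares for males and circles for females. Bsg and Rgs5 stand to the right of the other genes, and Anpep and Kcnj8 stand lowest.

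Between KO and control mice none of the 33 vascular genes passed the test. By edgeR's quasi-likelihood test, 0 of 33 reached an adjusted p of 0.05, against 2 of 14788 genes tested (0.0135%), and the smallest adjusted p among the 33 was 0.9999. DESeq2 and limma voom also called 0 of 33. At an unadjusted p of 0.05 there were 5 of 33 (15.2%), namely Cdh5, Kdr, Eng, Vtn and Anpep, all higher in KO mice, where the share over all genes was 2.81%, or 1.79% counted in the higher direction. The 5 came from 3 roles, with 1 junction gene, 2 receptors and 2 pericyte genes. In 2 of 33 genes, Vtn and Anpep, every KO mouse was above every control mouse, where 1.74% of all genes did not overlap in either direction and 0.933% did not overlap with KO higher. The log2 fold change was positive for 24 of 33 genes (72.7%) and for 51.5% of all genes tested. Its median was 0.10 over the 33 genes and 0.0036 over all genes. These shares are a description, because the genes were chosen with earlier results known. In bulk tissue, fewer cells of a type and less RNA per cell cannot be told apart. DESeq2 gave an unadjusted p under 0.05 for 2 genes (Eng and Vtn), and without both KO females there were 2 (Tek and Abcb1a), neither of them among the 5. Leaving out 1 library moved the log2 fold change by over 1.5 times, or turned it, for 27 of 33 genes; the 6 others were Cdh5, Kdr, Itm2a, Vtn, Anpep and Acta2.

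**Figure D2:**
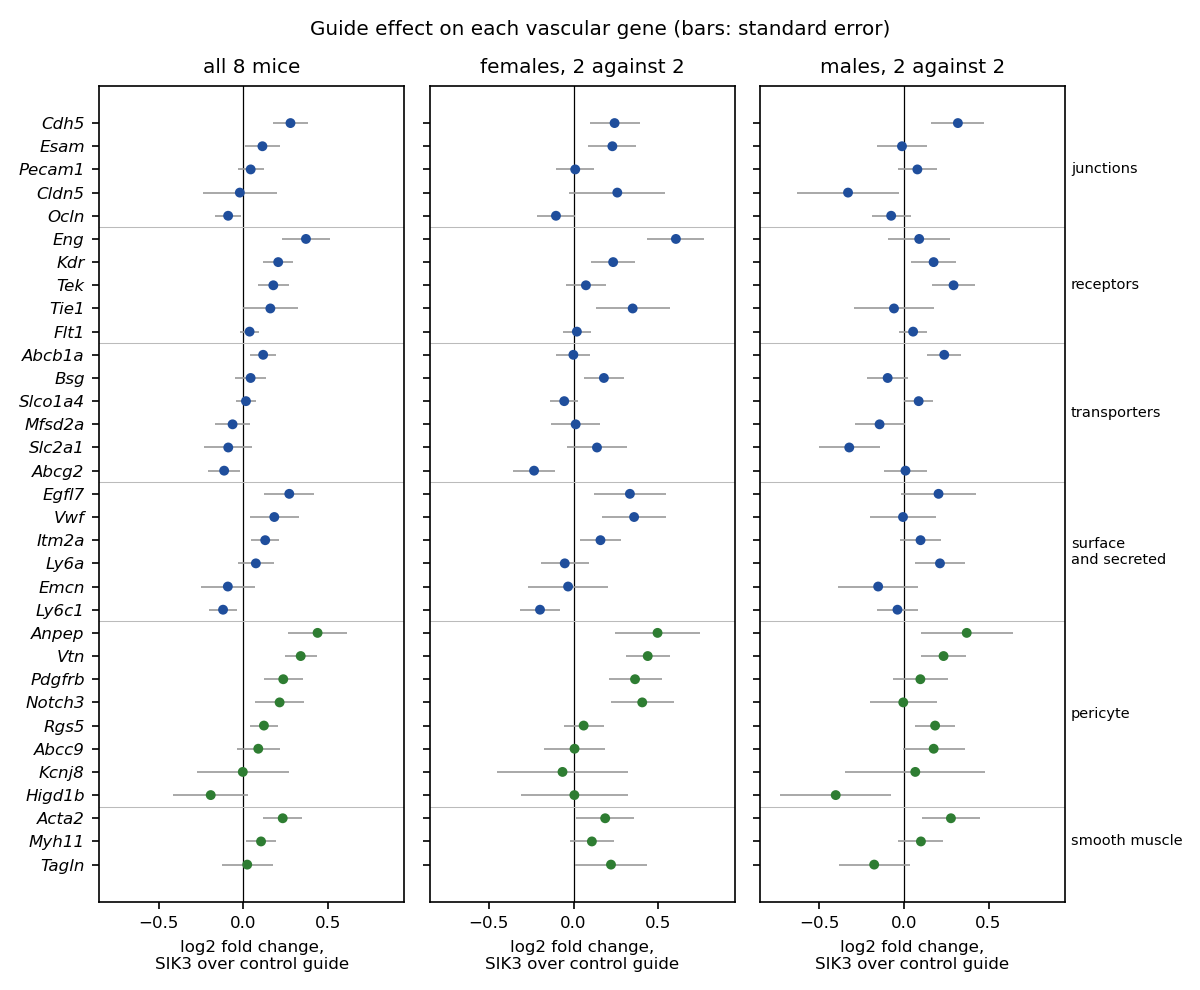
Log2 fold change of SIK3 over control guide for each vascular gene (horizontal axis; bars show the standard error), in all 8 mice, in females and in males, with endothelial genes in blue and mural genes in green. In all 8 mice 24 of 33 points lie to the right of 0, and Anpep (0.44), Eng (0.37) and Vtn (0.34) lie farthest to the right.

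Of the 5 junction genes, 3 had a positive log2 fold change. Cdh5 (ENSMUSG00000031871, chromosome 8, 104101625 to 104144511 on GRCm38) encodes VE-cadherin, the endothelial adherens junction protein. It was at 8.10, 10.5, 9.58 and 10.2 CPM in controls 1 to 4 and at 11.9, 10.1, 12.5 and 12 CPM in KO 1 to 4. KO 1, 3 and 4 were above every control, and KO 2 lay within the controls. Means were 9.60 ± 1.08 CPM for controls and 11.6 ± 1.04 CPM for KO mice (SD, n = 4). The log2 fold change was 0.28 ± 0.10 (SE), a 1.21-fold difference, at an unadjusted edgeR p of 0.0191 that was 0.9999 after adjustment. Cldn5, the main claudin of the barrier's tight junctions, gave 5.47, 3.92, 4.49 and 4.37 CPM in the controls and 2.55, 5.42, 4.64 and 5.26 CPM in the KO mice. KO 1 was below all other libraries and the other KO mice lay within the control range, so the groups overlapped widely, with a log2 fold change of -0.02 ± 0.22. Without KO 1 it was 0.20. Pecam1, an adhesion molecule of endothelial contacts, was at 17.3, 19.0, 15.9 and 18.4 CPM in the controls and 17.7, 17.5, 19.0 and 18.6 CPM in the KO mice. Its groups overlapped, with a log2 fold change of 0.04 ± 0.08. Esam and Ocln, an adhesion molecule and a tight junction protein, had log2 fold changes of 0.11 and -0.09.

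All 5 receptor genes had a positive log2 fold change, with a median of 0.18. Eng (ENSMUSG00000026814, chromosome 2, 32646595 to 32682669) encodes endoglin, a coreceptor for TGF-beta family ligands. It was at 9.37, 12.03, 9.06 and 9.40 CPM in the controls and 8.34, 11.3, 16.7 and 16.0 CPM in the KO mice. The KO females, KO 3 and 4, were above every control, KO 2 lay within the controls and KO 1 was the lowest of all 8. Means were 9.97 ± 1.38 and 13.1 ± 3.95 CPM (SD, n = 4). Its log2 fold change was 0.37 ± 0.14 at an unadjusted edgeR p of 0.0221. Without both KO females the log2 fold change of Eng was 0.09, and without control 4 it was 0.24. The interferon-stimulated and MHC class I lists were highest in the same libraries, KO 3 and 4, and their part in the result was not tested. Eng lies at 57.4% GC, and 61 of its exon bases lie opposite exons of Fpgs, whose reads cannot be told apart without a stated strand setting.

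Kdr (ENSMUSG00000062960, chromosome 5, 75932827 to 75978458) encodes VEGFR2, the main signalling receptor for VEGF-A. Its values were 14.3, 15.3, 16.7 and 17.1 CPM in the controls and 16.2, 18.8, 19.2 and 18.9 CPM in the KO mice. KO 2, 3 and 4 were above every control and KO 1 lay within them. The log2 fold change was 0.21 ± 0.09 at an unadjusted edgeR p of 0.0404. Flt1 encodes VEGFR1, which binds VEGF-A tightly and limits its action, and is one of the 2 genes with a full CRE. It gave 75.4, 70.0, 77.1 and 71.7 CPM in the controls and 79.5, 78.8, 75.1 and 68.5 CPM in the KO mice. These groups overlapped, with a log2 fold change of 0.04 ± 0.06. Tek, the angiopoietin receptor Tie2, was at 16.1, 22.2, 18.9 and 24.4 CPM in the controls and 20.8, 22.1, 23.0 and 26.0 CPM in the KO mice. In both groups of Tek the females held the higher values, and its log2 fold change was 0.18 ± 0.09 at an unadjusted edgeR p of 0.0723. Without control 1 it was 0.103. Tie1, the partner of Tie2, had a log2 fold change of 0.16 ± 0.16.

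The 6 transporter genes were split, 3 with a positive and 3 with a negative log2 fold change, and none had an unadjusted p under 0.05. Slc2a1, the glucose transporter GLUT1, was at 58.5, 37.1, 37.6 and 38.9 CPM in the controls and 43.5, 33.4, 39.4 and 44.2 CPM in the KO mice. Control 1 was above all other libraries, and the log2 fold change of -0.09 ± 0.14 was 0.09 without it. Slco1a4, a transporter of organic anions such as bile acids and conjugated hormones, was at 98.1, 99.1, 103 and 102 CPM in the controls and 113, 100.3, 98.0 and 95.6 CPM in the KO mice. KO 1 was the highest and KO 4 the lowest library, and the log2 fold change of Slco1a4 was 0.02 ± 0.06. Abcb1a, the efflux pump P-glycoprotein, was at 49.1, 45.0, 43.8 and 51.3 CPM in the controls and 55.3, 54.5, 46.4 and 49.8 CPM in the KO mice. The KO males held the 2 highest values, and the log2 fold change was 0.12 ± 0.08. It was 0.0619 without control 3 and 0.18 without control 4. Of the exon bases of Abcb1a, 553 lie opposite exons of Gm42686, so its count is uncertain without a stated strand setting. Bsg was at 107, 82.6, 94.7 and 94.2 CPM in the controls and 85.6, 103, 91.3 and 109 CPM in the KO mice, and the groups overlapped, at a log2 fold change of 0.04 ± 0.09. Mfsd2a, which carries lysophosphatidylcholine with docosahexaenoic acid, and Abcg2, a second efflux pump and the other gene with a full CRE, had log2 fold changes of -0.06 and -0.11.

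Surface and secreted endothelial proteins gave 4 positive log2 fold changes of 6 genes, and none had an unadjusted p under 0.05. Ly6c1, a surface protein anchored by a lipid, was at 19.2, 18.3, 18 and 18.7 CPM in the controls and 17.8, 18.4, 15.1 and 17.2 CPM in the KO mice. KO 2 was within the controls and the other KO mice below them, with a log2 fold change of -0.12 ± 0.08. Its neighbour on chromosome 15, Ly6a (Sca-1), was at 10.1, 10.7, 8.77 and 11.9 CPM in the controls and 10.8, 11, 10.7 and 11 CPM in the KO mice. The 4 KO values of Ly6a lay inside the control range, and its log2 fold change was 0.07 ± 0.10. Reads of genes of the Ly6 family with close copies may be split or lost in counting. Egfl7, a secreted endothelial matrix protein, had the highest log2 fold change of the 6 genes, 0.27 ± 0.15, followed by Vwf, the clotting protein von Willebrand factor, at 0.18 ± 0.14. Without KO 4 the value of Vwf was 0.04 and without control 4 it was 0.05, and without KO 2 that of Egfl7 was 0.18. Egfl7 shares 264 exon bases with Gm20532 on the same strand, so its count is uncertain. Itm2a, a membrane protein, and Emcn, the mucin endomucin, had values of 0.13 and -0.09.

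Of the 8 pericyte genes, 6 had a positive log2 fold change, with a median of 0.17, and the only 2 genes of the 33 without overlap between the guides were pericyte genes. Vtn (ENSMUSG00000017344, chromosome 11, 78499091 to 78502324) encodes vitronectin, a matrix and plasma glycoprotein that brain pericytes secrete. It was at 20.2, 17.5, 17.8 and 17.0 CPM in the controls and 22.2, 22.5, 20.8 and 26.0 CPM in the KO mice. The lowest KO mouse was just above the highest control, and means were 18.1 ± 1.40 and 22.9 ± 2.25 CPM (SD, n = 4). With a log2 fold change of 0.34 ± 0.09, a 1.26-fold difference, Vtn had the smallest unadjusted edgeR p of the 33 genes, 0.00368, and an adjusted p of 0.9999. Without both KO females its log2 fold change was 0.23. Anpep (ENSMUSG00000039062, chromosome 7, 79821803 to 79861059) encodes aminopeptidase N, a surface enzyme of pericytes that fibroblasts and some immune cells also carry. It was at 2.13, 2.26, 1.77 and 1.76 CPM in the controls and 2.49, 2.57, 2.75 and 2.94 CPM in the KO mice, from 24 to 52 counts a library. The groups did not overlap, and the log2 fold change was 0.44 ± 0.18 at an unadjusted edgeR p of 0.0276 (DESeq2 gave 0.114). Meningeal fibroblast markers, with summed values that overlapped between the groups, were highest in KO 4, as were Vtn and Anpep, and their part in the result was not tested.

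**Figure D3:**
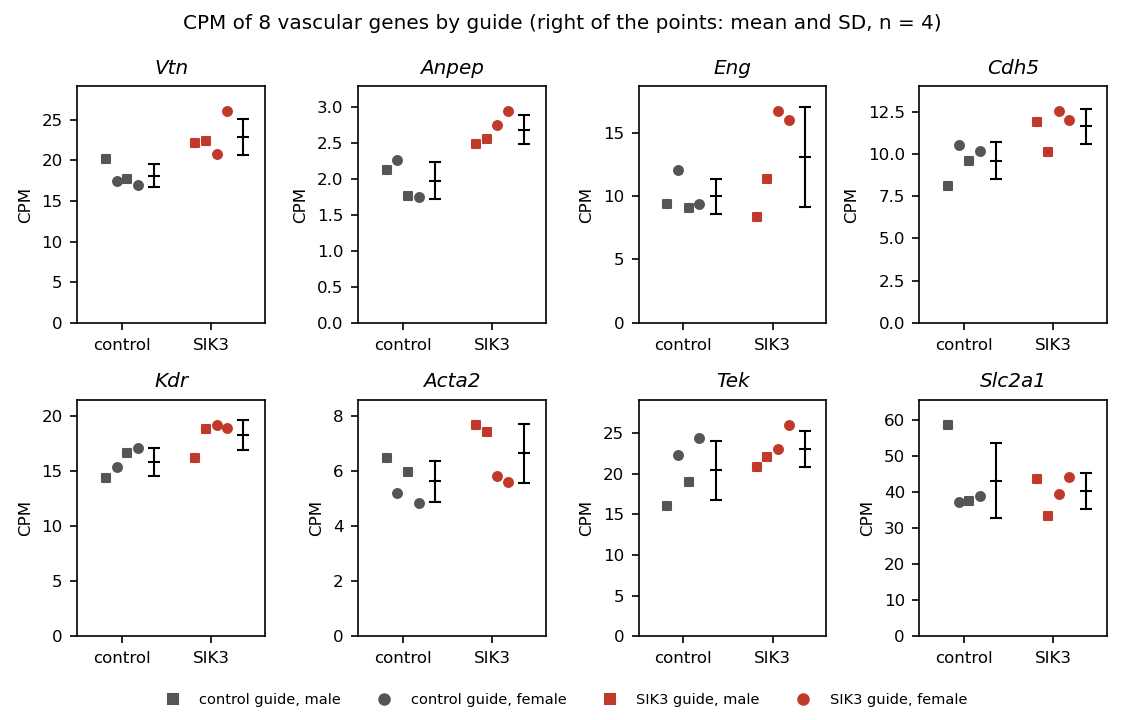
CPM (vertical axis, from 0) of 8 vascular genes in each of 4 control and 4 KO mice, with the mean and SD of each group to the right of its points. Only Vtn and Anpep have all KO points above all control points, and the 2 high KO points of Eng are the females.

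Pdgfrb, the receptor for PDGF-B that marks pericytes, was at 24.8, 22.3, 17.0 and 20.2 CPM in the controls and 20.5, 24.3, 26.6 and 28.1 CPM in the KO mice. The KO females were above every control and the KO males within them, with a log2 fold change of 0.24 ± 0.12 at an unadjusted edgeR p of 0.0660. Leaving out control 1 brought it to 0.37, and leaving out both KO females to 0.10. Rgs5 gave 148, 171, 164 and 159 CPM in the controls and 203, 151, 175 and 168 CPM in the KO mice. Its highest value was that of KO 1, and its log2 fold change of 0.12 ± 0.08 was 0.02 without that library. Kcnj8, the pore of the pericyte ATP-sensitive potassium channel, was at 1.49, 0.993, 0.810 and 1.39 CPM in the controls and 1.21, 1.21, 0.863 and 1.42 CPM in the KO mice. With 11 to 25 counts a library its log2 fold change of 0.00 had a standard error of 0.27. That error is wide beside the 0.34 of Vtn, so a difference of this size in Kcnj8 is neither shown nor excluded. Abcc9, the regulatory subunit of the same channel and its neighbour on chromosome 6, had a log2 fold change of 0.09 ± 0.13. Notch3, the Notch receptor of mural cells, was at 0.21 ± 0.14, and Higd1b, a small mitochondrial membrane protein of pericytes with 16 to 24 counts a library, at -0.19 ± 0.22. Of the exon bases of Notch3, 488 lie opposite exons of Gm17276, so its count is uncertain.

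The 3 smooth muscle genes had positive log2 fold changes, 0 of 3 with an unadjusted p under 0.05. Acta2, the actin of smooth muscle, was at 6.46, 5.19, 5.97 and 4.85 CPM in the controls and 7.66, 7.41, 5.83 and 5.60 CPM in the KO mice. Within each sex both KO mice were above both controls, and the log2 fold change of Acta2 was 0.23 ± 0.12 at an unadjusted edgeR p of 0.0667. Myh11, the smooth muscle myosin heavy chain, was at 18.2, 14.4, 14.9 and 13.6 CPM in the controls and 18.1, 17.3, 14.6 and 15.6 CPM in the KO mice. Tagln, an actin-binding protein of smooth muscle, was at 5.04, 3.59, 4.86 and 3.33 CPM in the controls and 4.84, 3.92, 3.72 and 4.36 CPM in the KO mice. Both genes overlapped between the guides, with log2 fold changes of 0.10 ± 0.09 for Myh11 and 0.02 ± 0.15 for Tagln. Tagln lies 76.8 kb from Sik3 on chromosome 9, and 1241 of its 1988 exon bases lie opposite exons of Gm48529, so its count is uncertain.

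Endothelial and mural genes were then set against each other. The log2 fold change was positive for 15 of 22 endothelial genes, with a median of 0.06, and for 9 of 11 mural genes, with a median of 0.12. An unadjusted p under 0.05 was found for 3 of 22 and 2 of 11. The 22 endothelial genes summed to 571 to 620 CPM in the controls and 588 to 629 CPM in the KO mice. The 11 mural genes summed to 247 to 264 CPM in the controls and 254 to 312 CPM in the KO mice, of which Rgs5 alone was 58.4% to 65.3%. Mean log2 CPM was higher over endothelial than over mural genes by 1.13 ± 0.07 in controls and 1.06 ± 0.08 in KO mice (SD, n = 4). This gap was 1.03, 1.17, 1.16 and 1.18 in controls 1 to 4 and 0.94, 1.13, 1.09 and 1.09 in KO 1 to 4. The difference between the group means was -0.07, and with medians over genes in place of means it was -0.22. KO 1, with its high Rgs5 and low Cldn5, had the smallest gap, control 1 the next, and the other KO mice were below the other controls. These scores were given no test because the genes were chosen with earlier results known.

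**Figure D4:**
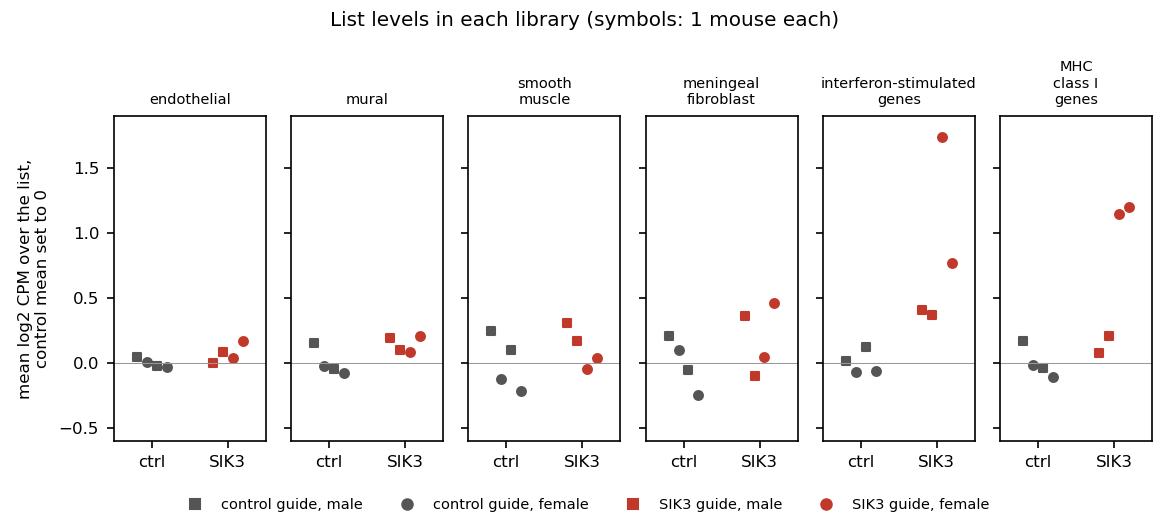
Mean log2 CPM over each list in each library, with the control mean set to 0 (vertical axis), for endothelial, mural, smooth muscle, meningeal fibroblast, interferon-stimulated and MHC class I genes. Endothelial values stay between -0.03 and 0.17 and mural values between -0.08 and 0.21, while interferon-stimulated genes reach 1.74 in KO 3.

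Against its control mean, the endothelial score was 0.00, 0.09, 0.03 and 0.17 in KO 1 to 4, where controls ran from -0.03 to 0.05. The mural score was 0.19, 0.10, 0.08 and 0.21 in KO 1 to 4, where controls ran from -0.08 to 0.15. KO 4 had the highest score in both classes, and control 4 the lowest. By gene, KO 4 was the highest of the 8 libraries for 5 endothelial and 4 mural genes, and control 4 the lowest for 5 and 5. Control 2 was the highest for 0 and 0. KO 4 was also the highest library of the meningeal fibroblast list (0.46) and the microglia list (0.30), and had the highest slope on GC content, and their part in these scores was not tested.

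**Figure D5:**
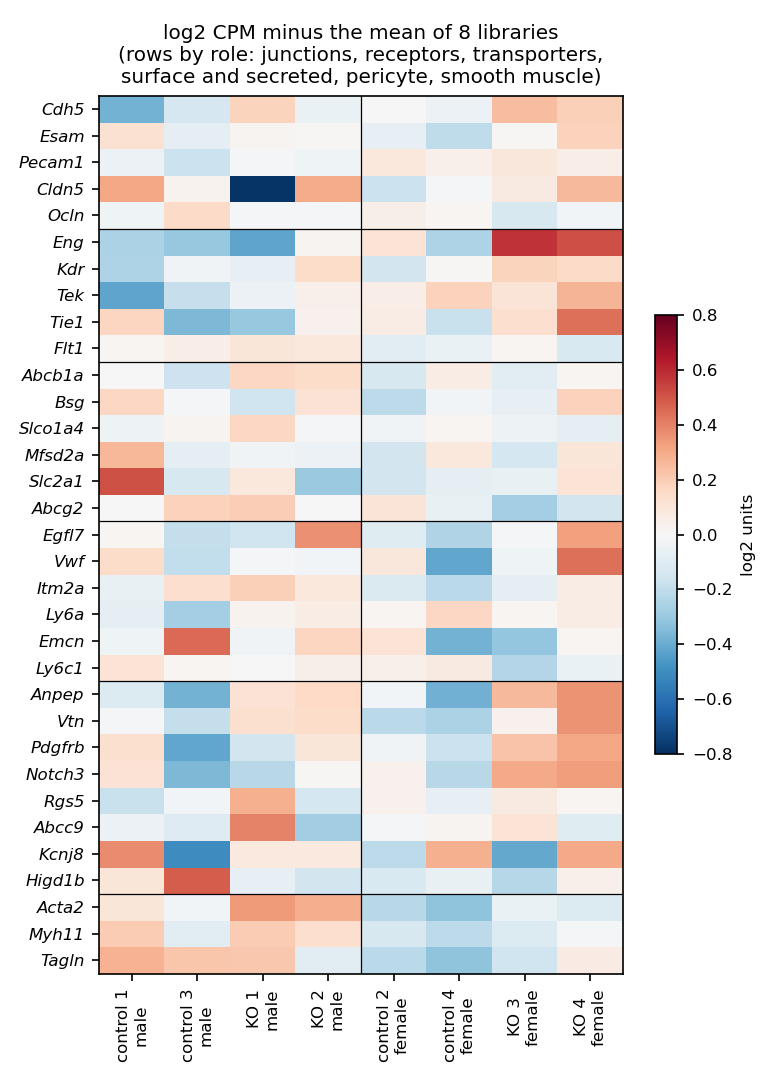
Heat map of log2 CPM minus the mean of the 8 libraries (colour, log2 units) for the 33 vascular genes (rows, by role) in the 8 libraries (columns, males left and females right). Eng is high in KO 3 and KO 4, Cldn5 is low in KO 1, and Acta2, Myh11 and Tagln are mostly higher in the males.

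The guides were then compared within each sex, 2 mice against 2. In females 0 of 33 vascular genes reached an adjusted p of 0.05 by edgeR, against 6 of 14788 genes (0.0406%), and the smallest adjusted p of the 33 was 0.661. Eng, Vtn and Pdgfrb had an unadjusted p under 0.05 in females, 3 of 33 and all higher in KO, where the share over all genes was 7.11%, or 5.21% in the higher direction. A count of 3 in 33 is near that background. Eng in females was at 12.03 and 9.40 CPM in the controls and 16.7 and 16.0 CPM in the KO mice, a log2 fold change of 0.60 ± 0.17, or 1.52-fold, at an unadjusted edgeR p of 0.00377. With no filter on low counts Eng was called in females, at an adjusted edgeR p of 0.0232. That setting called 275 genes in females, where the filtered test called 6. Vtn in females had a log2 fold change of 0.44 ± 0.13 and Pdgfrb one of 0.36 ± 0.16. The log2 fold change in females was positive for 25 of 33 genes, with a median of 0.14. Over all genes tested it was positive for 7566 of 14788, with a median of 0.0050.

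In males edgeR called 0 of 33 vascular genes and 0 of 14788 genes (0%), where 271 genes had an unadjusted p under 0.05 and DESeq2 called 3 genes, none of them vascular. Tek and Abcb1a, 2 of 33, had an unadjusted p under 0.05, both higher in KO, where the share over all genes was 1.83%. Tek in males was at 16.1 and 18.9 CPM in the controls and 20.8 and 22.1 CPM in the KO mice, and its log2 fold change was 0.29 ± 0.13. Abcb1a in males was at 49.1 and 43.8 CPM in the controls and 55.3 and 54.5 CPM in the KO mice, and its log2 fold change was 0.24 ± 0.10. Eng, which was higher in KO females, had a log2 fold change of 0.09 ± 0.18 in males. In males 20 of 33 genes had a positive log2 fold change, with a median of 0.08. Over all genes tested 7191 of 14788 were positive in males, with a median of -0.0041.

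The difference between the sexes in the guide effect was tested as an interaction. EdgeR called 0 of 33 vascular genes and 0 of 14788 genes (0%), and DESeq2 called 2 genes, none of them vascular. At an unadjusted p of 0.05 there were 0 of 33, where the share over all genes was 5.42%. Eng had the smallest interaction p of the 33, 0.0620 unadjusted and 0.765 adjusted by edgeR, with a log2 difference of 0.51 ± 0.25 between the female and the male effect. Across the 33 genes the log2 fold change went with GC content at r = 0.68 in females and r = -0.21 in males, a description over genes that share the same libraries. The library slope on GC content, taken over 14641 genes, was -0.049 and -0.117 in control females and 0.029 and 0.158 in KO females. In males it was 0.139 and -0.091 in controls and -0.159 and 0.089 in KO mice. The part of this slope in the effects within each sex was not tested.

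Females and males were also compared with the guide in the model. EdgeR called 0 of 33 vascular genes, against 9 of 14788 (0.0609%), with a smallest adjusted p of 0.742. With no filter on low counts Eng was called, at an adjusted edgeR p of 0.0156. That setting called 112 genes between the sexes, where the filtered test called 9. Unadjusted p-values under 0.05 were found for 4 of 33, where the share over all genes was 6.05%. The 2 higher in females were endothelial receptors and the 2 lower were smooth muscle genes. Tek was at 23.9 ± 1.64 CPM in females and 19.5 ± 2.62 CPM in males (SD, n = 4), a log2 difference of 0.30 ± 0.09. Eng was at 13.5 ± 3.42 and 9.53 ± 1.28 CPM, a log2 difference of 0.49 ± 0.14, with the female mean raised by KO 3 and 4. Acta2 was at 5.37 ± 0.434 CPM in females and 6.88 ± 0.797 CPM in males, a log2 difference of -0.36 ± 0.12 at an unadjusted edgeR p of 0.00951. Each of the 4 females was below each of the 4 males. Myh11 was at 14.6 ± 0.818 and 17.1 ± 1.55 CPM, a log2 difference of -0.23 ± 0.09. Tagln, the third smooth muscle gene, had a log2 difference of -0.31 ± 0.15 at an unadjusted edgeR p of 0.0601. In 4 of 33 genes the sexes did not overlap, with Pecam1 and Tek higher and Flt1 and Acta2 lower in females, where the share over all genes was 4.45%. Sequencing depth was higher in every female, and its part in these values was not tested.

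Other genes of the same pathways were described from 8 lists with 131 genes, of which 121 were tested. Of these, 0 were called between the guides by edgeR and 3 had an unadjusted p under 0.05, 2 higher and 1 lower, or 2.48%, near the 2.81% of all genes. The log2 fold change was positive for 77 of 121, with a median of 0.03. Sox7, an endothelial transcription factor, was at 1.21, 1.49, 0.958 and 1.58 CPM in the controls and 1.61, 1.71, 2.104 and 1.98 CPM in the KO mice, with no overlap and a log2 fold change of 0.50 ± 0.19. Slc22a8, an organic anion transporter of the barrier, had a log2 fold change of 0.23 ± 0.10. Cd34, a surface sialomucin of endothelial cells, was the one lower gene, at 49.3, 49.2, 52.6 and 52.0 CPM in the controls and 46.7, 44.8, 42.6 and 48.7 CPM in the KO mice, with no overlap and a log2 fold change of -0.15 ± 0.07. Each of these 3 genes had an adjusted edgeR p of 0.9999.

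Ligands and partners of the receptors were mixed in direction. Among 12 VEGF and angiopoietin genes, 8 were positive and 0 had an unadjusted p under 0.05, with Vegfd at 0.36 ± 0.20 and Angpt1, the ligand that activates Tie2, at 0.25 ± 0.15. Of 12 tested PDGF and TGF-beta genes, 8 were positive and 0 had an unadjusted p under 0.05, with the ligand gene Pdgfc at -0.20 ± 0.13 and Acvrl1, the receptor that works with endoglin, at 0.19 ± 0.13. The Notch list had 7 of 12 positive, with Notch1 at 0.29 ± 0.18 and its target Hey2 at -0.28 ± 0.17. Among barrier Wnt genes 6 of 12 were positive, with the coreceptor Lrp5 at 0.23 ± 0.15 and the receptor Fzd4 at -0.15 ± 0.11. Vascular transcription factors were positive in 12 of 17, with a median of 0.05. Other endothelial markers were positive in 16 of 28, with a median of 0.01. Within the sexes these were positive in 11 of 28 in females and 18 of 28 in males. Other mural markers were positive in 13 of 18, with the myosin light chain kinase gene Mylk at -0.16 ± 0.10 and Casq2, a calcium store protein, at 0.33 ± 0.24. Of the arterial and venous genes 7 of 10 were positive, with the adhesion molecule Vcam1 at 0.16 ± 0.08 and Bmx, a tyrosine kinase of arterial endothelium, at -0.45 ± 0.24.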

How the data were processed

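RNA-seq of CA1 tissue from 8 mice was analysed, 1 library each. The files deposited by the authors hold raw counts of reads for 37315 Ensembl genes, with 0 counts in rows that name no gene. The submitters' processing notes list Trimmomatic 0.33, TopHat2 2.1.1, HTSeq 2.0.1 and the mm10 build without their roles. TruSeq stranded mRNA libraries were made, per the labels' protocols. The sources used here do not give the strand setting or annotation release of the counting. The table of the whole series was not used here.

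Symbols, positions and exon lengths came from GENCODE release M21 (GRCm38), which named 35449 identifiers. The test was edgeR's (version 4.0.16, R 4.3.3) quasi-likelihood F test after TMM scaling, with sex as a covariate and 5 residual degrees of freedom. Genes were kept by filterByExpr (count of at least 10, total of at least 15), and p-values were adjusted by Benjamini and Hochberg over 14788 genes. A call is an adjusted p under 0.05. Effects within each sex and their interaction came from a fit with 4 groups. A standard error is the log2 fold change over the square root of F. CPM was scaled by TMM library sizes, with a prior count of 2 before taking log2. A p-value sets a difference against the spread between these mice, which edgeR estimates with information shared over genes. For the effects within a sex, the spread was estimated from the libraries of both sexes. The procedure was also run on simulated counts with no sex effect, and no result here rests on that run.

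The genes and lists were chosen with earlier results of these data known. Values per library were given for 18 defining markers and for every other vascular gene with an unadjusted p under 0.05 in a guide contrast (21 genes in all). Pathway lists were given by counts and up to 2 genes with the smallest p. Alternatives were RLE scaling, other filters, DESeq2 1.42.0, limma voom (limma 3.58.1), no sex term and leaving out each library. Leaving out both KO females, and a covariate for each library's slope on GC content, were chosen after seeing the data.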

Additional observations from a re-analysis of the deposited data

Results flagged for a closer look

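In 6 of 66 groups of 4 libraries, 1 library stood apart from the other 3 by Dixon's criterion, a gap to its nearest neighbour that takes up most of the group's range, which chance alone gives in about 1 of 20 groups. Esam was at 13.2 CPM in KO 4, where the other KO mice were at 11.7 to 11.8. Ocln was at 18.6 CPM in KO 3 and 19.98 to 20.2 CPM in the other KO mice. Kdr was at 16.2 CPM in KO 1, below 18.8 to 19.2 CPM. Eng was at 12.03 CPM in control 2, above 9.06 to 9.40 CPM in the other controls. Slc2a1 was at 58.5 CPM in control 1, above 37.1 to 38.9 CPM. Vwf was at 24.7 CPM in KO 4, above 17.7 to 17.9 CPM.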

How the results depend on the processing

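No paired analysis was possible because the replicate numbers were given in listing order. Over 21 named genes and 16 alternatives, the log2 fold change kept its sign in 318 of 336 cases and changed it in 18. Leaving out 1 library at a time, Cldn5 ran from -0.16 to 0.20, Slc2a1 from -0.17 to 0.0891, Slco1a4 from -0.0345 to 0.0382, Bsg from -0.0388 to 0.12, Kcnj8 from -0.16 to 0.15 and Tagln from -0.0653 to 0.11. Without both KO females Bsg was at -0.10, Kcnj8 at 0.0675 and Tagln at -0.17, with the GC slope Bsg was at -0.0205, and by limma voom Kcnj8 was at 0.0112. The 2 genes called between the guides became 84 with no filter, 0 without both KO females, and 0 to 2 with 1 library left out. The 6 called in females became 275 with no filter, 18 by DESeq2 and 0 to 21 with 1 library left out. The 0 called in males became 20, 3 and 0 to 1, the 0 of the interaction 100, 2 and 0 to 1, and the 9 between the sexes 112, 19 and 7 to 13. Of the vascular genes, 1 (Eng) was called in females and 1 (Eng) between the sexes with no filter. The 5 with an unadjusted p under 0.05 became 2 by DESeq2, 2 without both KO females and 2 (without KO 4) to 6 (without KO 1) with 1 library left out. The gap of endothelial over mural genes, 1.10 over all libraries, was 0.894 per kilobase and 0.905 without Bsg, Slc2a1 and Ocln, and its difference between KO and control, -0.073, was -0.216 with medians over genes. Depth limits Kcnj8, Higd1b and Anpep, with 11 to 52 counts a library. The cause of these changes was not tested.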

Other observations

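Ratios of functional partners within a library, where scaling cancels, were described without a test. The log2 ratio of Kdr over Flt1 was -2.38, -2.18, -2.20 and -2.06 in controls 1 to 4 and -2.29, -2.06, -1.96 and -1.85 in KO 1 to 4, so the ranges overlapped. Tek over Tie1 was at 1.79 ± 0.41 in controls and 1.82 ± 0.17 in KO mice (SD, n = 4), and Abcc9 over its channel partner Kcnj8 at 3.79 ± 0.34 and 3.84 ± 0.44. Vtn over Rgs5, both pericyte genes, was at -3.14 ± 0.19 in controls and -2.92 ± 0.25 in KO mice, and Pdgfrb over Rgs5 at -2.93 ± 0.28 and -2.81 ± 0.34. Cdh5 over Cldn5 had its highest value, 2.17, in KO 1, the library with the lowest Cldn5. With the slope on GC content as a covariate, chosen after seeing the data, 7 of 33 vascular genes had an unadjusted edgeR p under 0.05 and 0 an adjusted one. The share over all genes was not counted for this fit, so the 7 of 33 has no background to be read against. Rgs5 went from 0.12 to 0.17 and Cdh5 from 0.28 to 0.32 in log2 fold change, while Pdgfrb went from 0.24 to 0.15, Eng from 0.37 to 0.28 and Vtn from 0.34 to 0.29. Anpep went from 0.44 to 0.39 and was no longer under 0.05, at an unadjusted edgeR p of 0.0530.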
